A study of Mus musculus with 10 samples.

Results

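The genes described here carry out mitosis and chromosome segregation: 42 mouse genes for the cyclin-dependent kinase switch, the mitotic kinases, the spindle checkpoint, kinesin motors, the kinetochore, chromosome structure, spindle assembly, cytokinesis and the transcription factors that drive them. They were chosen by name from a list of 42 symbols, matched to the symbol that the deposited files give for each transcript, and all 42 were found among 22380 genes (128 of 64019 transcripts). In every cycling cell, cyclin B with its kinase starts mitosis, kinetochores tie chromosomes to spindle microtubules, and a checkpoint holds back the anaphase-promoting complex until every chromosome is attached. Separase then frees the sister chromatids and a contractile ring divides the cell. Germinal center B cells are among the fastest dividing cells of the body, and they express these genes strongly, above all in the dark zone.

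The study measured the transcriptome of germinal center B cells from mice in which Zbtb38, a gene for a zinc finger protein that binds methylated DNA, can be deleted with Cre. Mice were immunized with NP-OVA in alum, and 2 weeks later GL7+ cells that lacked IgD and bound NP were sorted, with 1 library per mouse. There were 2 wild-type libraries (WT, Zbtb38fl/fl without Cre), 2 heterozygous libraries (HET, Zbtb38fl/+ x Vav-Cre) and 6 knockout libraries (KO, Zbtb38fl/fl x Vav-Cre), numbered here as in the labels. The floxed line was made in C57Bl6/J zygotes and kept by backcrossing to C57Bl6/N, with the number of generations not given. Vav-Cre deletes in all blood cells and not in germinal center B cells alone, the floxed allele comes from a single founder line, and the WT mice lack Cre, so in WT against KO the transgene and the genotype cannot be told apart. Sex, age and processing batch are not given in the sources used. No treatment other than the immunization is described.

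Library totals ran from 26612431 estimated counts (KO 2) to 41059082 (WT 1), and the members took from 0.823 to 1.08% of the counts. Every member had at least 751 counts in every library (Anln in the lowest case), so counting error is small beside the spread between libraries. The p-values below measure against that spread. With 1 library per mouse, differences between mice, sorts and library quality cannot be told apart in it. In HET against KO and WT against HET the spread is shared over all 10 libraries, of which 6 are KO. All 42 members passed the filter on low counts in every comparison. KO 6 stands apart from the other libraries: its median correlation with them across genes was 0.954, against 0.971 to 0.983 for the others, and it lies at 79.3 on the first principal component, where the others lie from -23.4 to 0.733. KO 1 and KO 6 also held less of long transcripts relative to short ones across all genes, with a log2 difference between the longer and the shorter genes of -0.35 in KO 1 and -0.18 in KO 6, against -0.13 (KO 3) to 0.16 (HET 2) in the others. Results are therefore also given without these 2 libraries.

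Zbtb38 itself, in TPM (the deposited level per transcript length), was at 63.5 and 63.3 in WT 1 and WT 2, 49.6 and 49.6 in HET 1 and HET 2, and 20.1, 46.1, 23.7, 23.7, 23.5 and 17.5 in KO 1 to KO 6. These sums take in every exon, while Cre deletes exon 3, which holds the whole coding sequence, so they do not measure the deleted exon alone. KO 2 was the highest KO library, close to HET in TPM, while in TMM-normalized CPM (counts scaled to library size and not to length) it was at 50.3 against 106 and 117 in HET. The log2 fold change, WT over KO, was 2.31 (standard error 0.27), with both WT libraries above every KO library and an adjusted p of 0.0734 (edgeR quasi-likelihood, Benjamini-Hochberg over 14203 genes, threshold 0.1). For WT and HET together over KO it was 2.08 (0.23), 4 of 4 control libraries above every KO library, adjusted p 0.0104 by edgeR quasi-likelihood with Benjamini-Hochberg. Length-scaled counts, a replicate block and limma on log2(TPM + 1) or log2(TPM + 0.1) called 0 genes in that comparison, so not Zbtb38 either. Length-scaled counts also called 0 genes in WT over KO. HET over KO gave 1.82 (0.26) with an adjusted p of 0.128, over the threshold, and WT over HET 0.49 (0.35) with 0.873 (edgeR quasi-likelihood, Benjamini-Hochberg). The WT over KO call is not made without WT 1 (2.26) or WT 2 (2.36), where 1 WT library is left and KO alone gives the spread. Nor is it made without KO 1 (2.26, adjusted p 0.301), KO 3 (2.34, 0.260), KO 4 (2.32, 0.267) or KO 5 (2.27, 0.425; edgeR quasi-likelihood, Benjamini-Hochberg).

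The cells carried the markers of germinal center B cells. Bcl6, the master regulator of the germinal center, lay between 59.3 and 122 TPM over the 10 libraries, Fas between 161 and 229, and S1pr2, a receptor that keeps these cells in the follicle, between 71.0 and 185. None of these was absent from any library.

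Together the 42 members summed to 5815 and 5076 TPM in WT 1 and WT 2, 6503 and 6801 in HET 1 and HET 2, and 5293, 6396, 6021, 5684, 6412 and 4922 in KO 1 to KO 6. Both HET libraries were above every KO library, the WT libraries lay within the KO range, and KO 6 was lowest. The WT mean of 5445 TPM (SD 522, n = 2) was 94.1% of the KO mean of 5788 (SD 603, n = 6), and the HET mean of 6652 (SD 211, n = 2) was 115% of it. WT and HET together had a mean of 6049 (SD 769, n = 4), 105% of the KO mean. Leaving out libraries 1 at a time, the WT share ran from 87.7 to 100.5% and the HET share from 112 to 118%. In sorted bulk samples, fewer dividing cells and less RNA per dividing cell cannot be told apart, and this holds for every level below.

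Members differed far more from each other than between libraries. The most abundant was Ube2c with a mean of 480.5 TPM over the 10 libraries and the least was Anln with 16.4, which still stood at the 71.7th percentile of all genes; the median member was at 111 TPM. The 10 most abundant members made up 50.3% of the summed TPM. For a single member, the highest library was between 1.22 times (Mad2l1) and 3.29 times (Ect2) the lowest, with a median of 1.80. Relative to each gene's own mean over the 10 libraries, on log2 CPM, the median member was at -0.28 in WT 2, where 20 members had their lowest value, and at 0.24 in HET 2, where 16 had their highest. HET 1 (0.13) and KO 5 (0.16) were also above, with 36 and 41 members over their own mean, and KO 4 (-0.16) and KO 6 (-0.16) below, with 4 and 8 members over it. KO 1 was split: it held the highest value of 13 members and the lowest of 7.

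**Figure D1:**
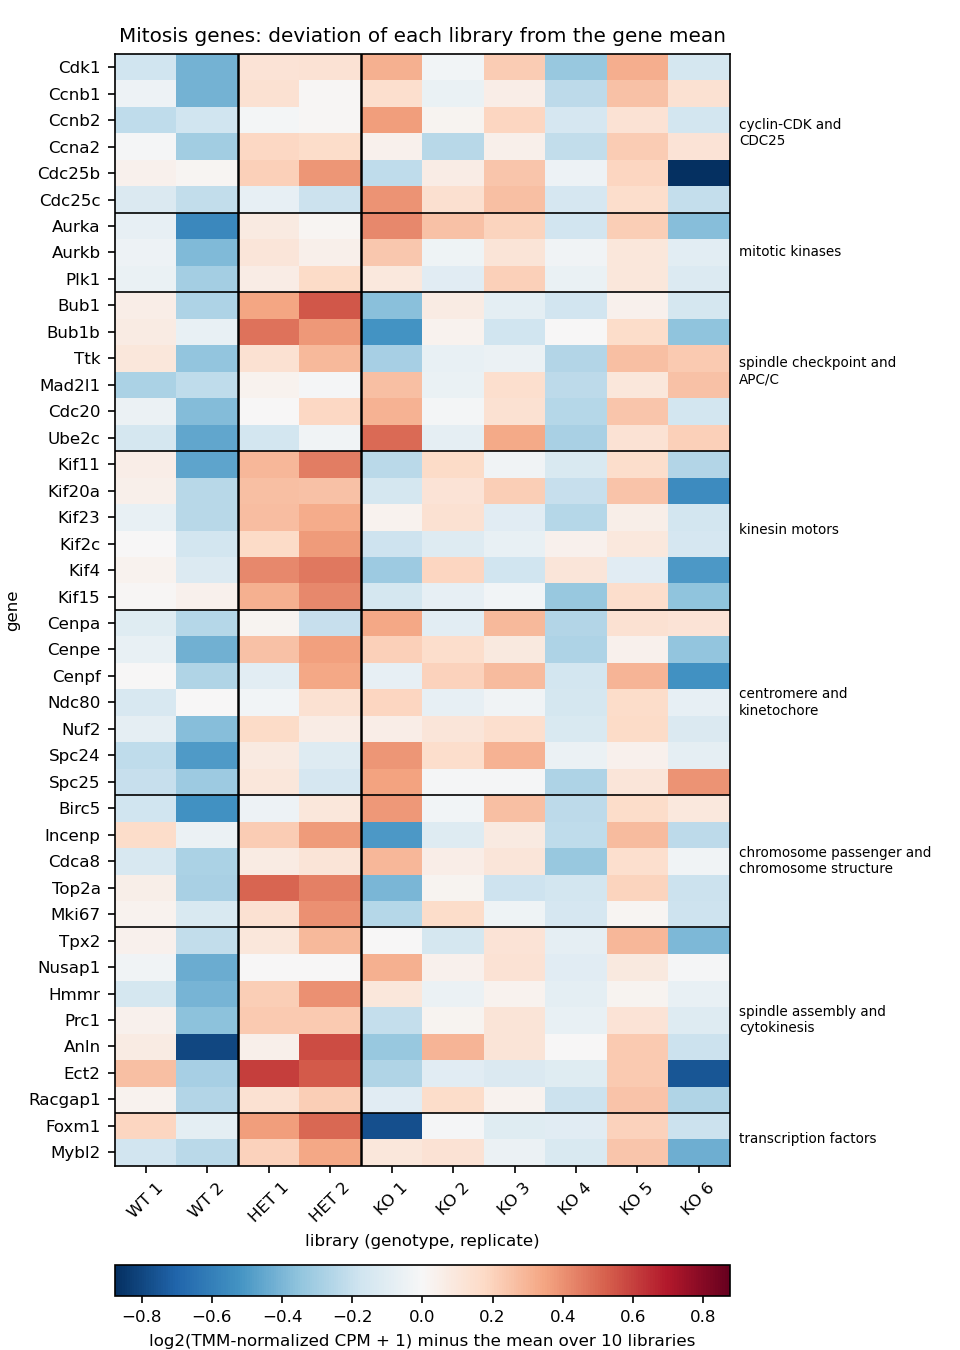
Log2 of TMM-normalized CPM plus 1 for each of the 42 genes (rows, grouped by role) in each of the 10 libraries (columns), minus the gene's mean over the libraries; red is above and blue below the mean. WT 2 is below the mean for most genes and HET 1 and HET 2 above, while KO 1 is above for some roles and below for others.

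The cyclin-dependent kinase group, 6 members, summed to 1264 and 1153 TPM in WT, 1411 and 1468 in HET, and 1030 to 1461 in KO. Ccnb2, the B-type cyclin of the Golgi and spindle poles, was its most abundant member, at 253 and 270.0 TPM in WT, 290.0 and 301 in HET and 224, 299 and 313 in KO (lowest, median and highest of the 6 libraries, as for every KO triple that follows). In TPM KO 6 was far under the other KO libraries, and WT and HET lay within the KO range. Ccna2, the cyclin of S phase and early mitosis, was at 277 and 237 TPM in WT, 303 and 318 in HET and 222, 255 and 302 in KO; both HET libraries exceeded every KO library and WT overlapped with KO. Cdk1, the kinase that B-type cyclins activate, was at 239 and 209 TPM in WT, 289 and 294 in HET and 198, 270.4 and 309.9 in KO. KO 6 was lowest and KO 5 highest, so the KO range enclosed all 4 controls. Ccnb1, the cyclin that drives entry into mitosis, stood at 263 and 206 TPM in WT, 276 and 270.1 in HET and 228, 239 and 302 in KO. WT 2 was under every KO library and WT 1 was not. Cdc25c, a phosphatase that activates Cdk1, was the least abundant, at 36.0 and 34.7 TPM in WT, 37.0 and 34.7 in HET and 28.8, 40.7 and 45.4 in KO; all 4 control libraries were under 5 of the 6 KO libraries and over KO 6. Cdc25b, the phosphatase that acts earlier, was at 196 and 197 TPM in WT, 216 and 249.5 in HET and 87.5, 198 and 206 in KO. Its low values were in KO 6 (87.5) and KO 1 (125), and HET was above every KO library.

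The mitotic kinases are Aurkb, the kinase of the chromosome passenger complex, Plk1, the polo kinase of spindle and centrosome, and Aurka, the centrosomal Aurora kinase. Aurkb was at 197 and 159.9 TPM in WT, 216 and 211 in HET and 162, 201 and 210.1 in KO, with HET just above every KO library and WT 2 just below. Plk1 was at 173 and 149 TPM in WT, 185 and 203 in HET and 139, 177 and 186 in KO, where WT lay inside the KO range and HET 2 above it. Aurka was at 104 and 75.7 TPM in WT, 114 and 112 in HET and 71.1, 113 and 136 in KO. KO 6 and WT 2 were the low libraries of Aurka, and KO 2 the highest.

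In the spindle checkpoint and anaphase-promoting complex group (6 members), Ube2c, the ubiquitin-conjugating enzyme of that complex, led with 446 and 378 TPM in WT, 446 and 492 in HET and 435, 505 and 573 in KO. WT 2 was below every KO library, and WT 1 and HET 1 were above only the lowest of them, KO 4. Cdc20, the activator that the checkpoint holds back, was at 332 and 273 TPM in WT, 340.0 and 389 in HET and 260.1, 333 and 378 in KO; HET 2 was the highest library, KO 6 the lowest, and WT overlapped with KO. Mad2l1, the checkpoint protein that binds Cdc20, was at 145 and 150.3 TPM in WT, 176 and 175 in HET and 153, 171 and 174 in KO. In TPM both WT libraries were below every KO library, and both HET libraries just above. In CPM HET was at 247 and 240, under the KO mean of 258, and WT 2 (207.0) was just above KO 4 (206.6). Bub1b, the pseudokinase of the checkpoint complex, was at 129.6 and 120.3 TPM in WT, 168 and 161 in HET and 65.8, 113 and 130.2 in KO. Its KO libraries spread widely, with KO 1 lowest and KO 6 next, and HET was above them all. Bub1, the kinase that recruits the checkpoint to kinetochores, was at 61.6 and 49.96 TPM in WT, 73.8 and 86.5 in HET and 35.3, 52.6 and 64.4 in KO. HET was above every KO library, WT 1 above 5 of 6 and WT 2 above 3 of 6. Ttk, the kinase that starts checkpoint signaling, was the least abundant, at 32.5 and 24.9 TPM in WT, 33.0 and 36.7 in HET and 18.6, 29.3 and 34.9 in KO, with KO 1 lowest and HET 2 highest.

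Of the 6 kinesins, Kif23, the motor of the central spindle, was the most abundant, at 124 and 112 TPM in WT, 153 and 161 in HET and 102, 112 and 147 in KO. Kif20a, a motor needed for cytokinesis, was at 103 and 85.7 TPM in WT, 118 and 119 in HET and 57.5, 97.1 and 112 in KO. In both genes HET was above every KO library and WT lay within the KO range. Kif11, the motor that pushes spindle poles apart, was at 90.5 and 64.1 TPM in WT, 104 and 119 in HET and 56.5, 79.4 and 101 in KO. Kif15, which can stand in for Kif11, was at 58.6 and 54.4 TPM in WT, 77.1 and 68.1 in HET and 40.6, 50.7 and 59.8 in KO. HET exceeded every KO library in both, and for Kif15 both WT libraries were above 5 of 6 KO libraries. Kif4, a chromosome-bound motor, was the least abundant, at 35.1 and 32.2 TPM in WT, 45.1 and 47.5 in HET and 20.4, 28.5 and 40.4 in KO, with KO 6 and KO 1 lowest. Kif2c, which takes microtubules apart at centromeres, was at 62.3 and 57.1 TPM in WT, 69.3 and 80.9 in HET and 42.2, 56.6 and 67.3 in KO. All 6 kinesins had both HET libraries above every KO library in TPM, against 19 of the 42 members and 8.88% of all genes tested.

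The centromere and kinetochore group (7 members) was led by Cenpa, the histone that marks centromeres, at 269 and 262 TPM in WT, 285 and 248 in HET and 268, 293 and 319 in KO. HET 2 and WT 2 were below every KO library, HET 1 and WT 1 were not. Spc24 and Spc25 are partners in the Ndc80 complex, which grips microtubules. Spc24 was at 162 and 138 TPM in WT, 189.5 and 173 in HET and 136, 188 and 214 in KO, and Spc25 at 122 and 114 in WT, 148 and 126 in HET and 123, 139 and 155 in KO. For Spc25 both WT libraries were below every KO library, while for Spc24 KO 6 was the lowest library of all and WT lay below the other 5. The remaining partners were Nuf2, at 98.2 and 82.7 TPM in WT, 115 and 109 in HET and 80.7, 101 and 116 in KO, and Ndc80, at 76.2 and 86.2 in WT, 81.4 and 92.4 in HET and 67.5, 76.6 and 88.0 in KO. WT 2 was on the low side for Nuf2 and not for Ndc80, and KO overlapped with WT and with HET in both. Cenpe, the kinetochore motor, was at 35.3 and 28.0 TPM in WT, 43.1 and 47.5 in HET and 24.6, 34.4 and 42.6 in KO, with HET above every KO library. Cenpf, of the outer kinetochore, was the least abundant at 27.9 and 26.6 TPM in WT, 31.8 and 40.99 in HET and 21.5, 31.0 and 39.7 in KO, and here HET 1 lay inside the KO range.

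The chromosome passenger and chromosome structure group (5 members) was led by Birc5 (survivin), at 347 and 281 TPM in WT, 401 and 430.4 in HET and 341, 400.5 and 432 in KO. WT 2 was below every KO library, and HET lay within the KO range. Cdca8 (borealin), its partner, was at 221 and 207 TPM in WT, 253 and 266 in HET and 200.1, 233 and 264 in KO. KO 6 was lowest and HET 2 highest. Incenp, the scaffold of the passenger complex, was at 122 and 108 TPM in WT, 125 and 142 in HET and 59.1, 101 and 124 in KO; KO 1 was lowest, and HET was above every KO library. Top2a, the topoisomerase that untangles sister chromatids, was at 160.0 and 129 TPM in WT, 216 and 209.9 in HET and 89.9, 133 and 165 in KO. The pair of HET libraries stood clear of all others, and KO 1 was lowest. Mki67 (Ki-67), which coats mitotic chromosomes, was at 81.0 and 72.6 TPM in WT, 86.4 and 103 in HET and 50.7, 71.1 and 92.6 in KO, with KO 1 lowest and HET 2 highest.

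Among the 7 spindle assembly and cytokinesis members, Racgap1, of the central spindle, was at 158 and 131 TPM in WT, 168 and 181 in HET and 109, 142 and 179 in KO, and Prc1, which bundles antiparallel microtubules, at 127 and 102, 135 and 148 and 77.1, 117 and 133. WT overlapped with KO in both, while HET was above every KO library for Prc1. Nusap1, which stabilizes spindle microtubules, was at 118 and 91.4 TPM in WT, 119 and 121 in HET and 102, 119 and 129 in KO, and WT 2 was lower than any other library. Hmmr, a spindle pole protein, was at 48.2 and 41.2 TPM in WT, 61.1 and 71.1 in HET and 43.3, 49.9 and 53.6 in KO. HET was above every other library and WT 2 below. Ect2, the exchange factor that activates RhoA at the division plane, was at 54.3 and 31.3 TPM in WT, 56.4 and 62.3 in HET and 18.9, 34.3 and 41.3 in KO. HET and WT 1 were above every KO library, WT 2 was not, and KO 6 was lowest. Tpx2, the activator of Aurka, was at 89.5 and 75.7 TPM in WT, 92.7 and 107 in HET and 57.2, 83.4 and 99.3 in KO. Anln, the ring scaffold anillin, was at 16.2 and 9.34 TPM in WT, 17.4 and 24.3 in HET and 10.4, 16.3 and 21.3 in KO; WT 2 was lowest and HET 2 highest. The transcription factors close the list: Foxm1, which drives the genes of late G2, was at 55.8 and 48.5 TPM in WT, 60.5 and 69.4 in HET and 21.7, 47.0 and 56.0 in KO. KO 1 was far below the other libraries and HET above every KO library. Mybl2, which acts with the MuvB complex ahead of Foxm1, was at 69.5 and 70.3 TPM in WT, 86.8 and 98.5 in HET and 49.7, 73.1 and 93.1 in KO, and KO 6 was lowest.

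Across the 42 members, in TPM, the lowest KO library was KO 6 for 24, KO 1 for 13 and KO 4 for 5, and the highest was KO 2 for 22 and KO 5 for 13. In CPM, KO 1 held the highest value of all 10 libraries for 13 members and KO 2 for 0. Again in TPM, WT 1 was above WT 2 in 37 members, HET 2 above HET 1 in 30, and both HET libraries above both WT libraries in 39, beside 20.8% of all genes tested in WT against HET. By group means in TPM, HET was the highest of the 3 genotypes for 37 members and KO for 5, and WT was the lowest for 24 and KO for 18. By the fold changes from counts, given below, WT was lower than KO for 33 members and lower than HET for 42. HET was lower than KO for 10. The transcript with the largest mean share made up over 50% of the TPM in 39 members, the others being Cenpa (47.1%), Kif15 (39.7%) and Prc1 (36.7%), and 10 members were quantified by 1 transcript.

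**Figure D2:**
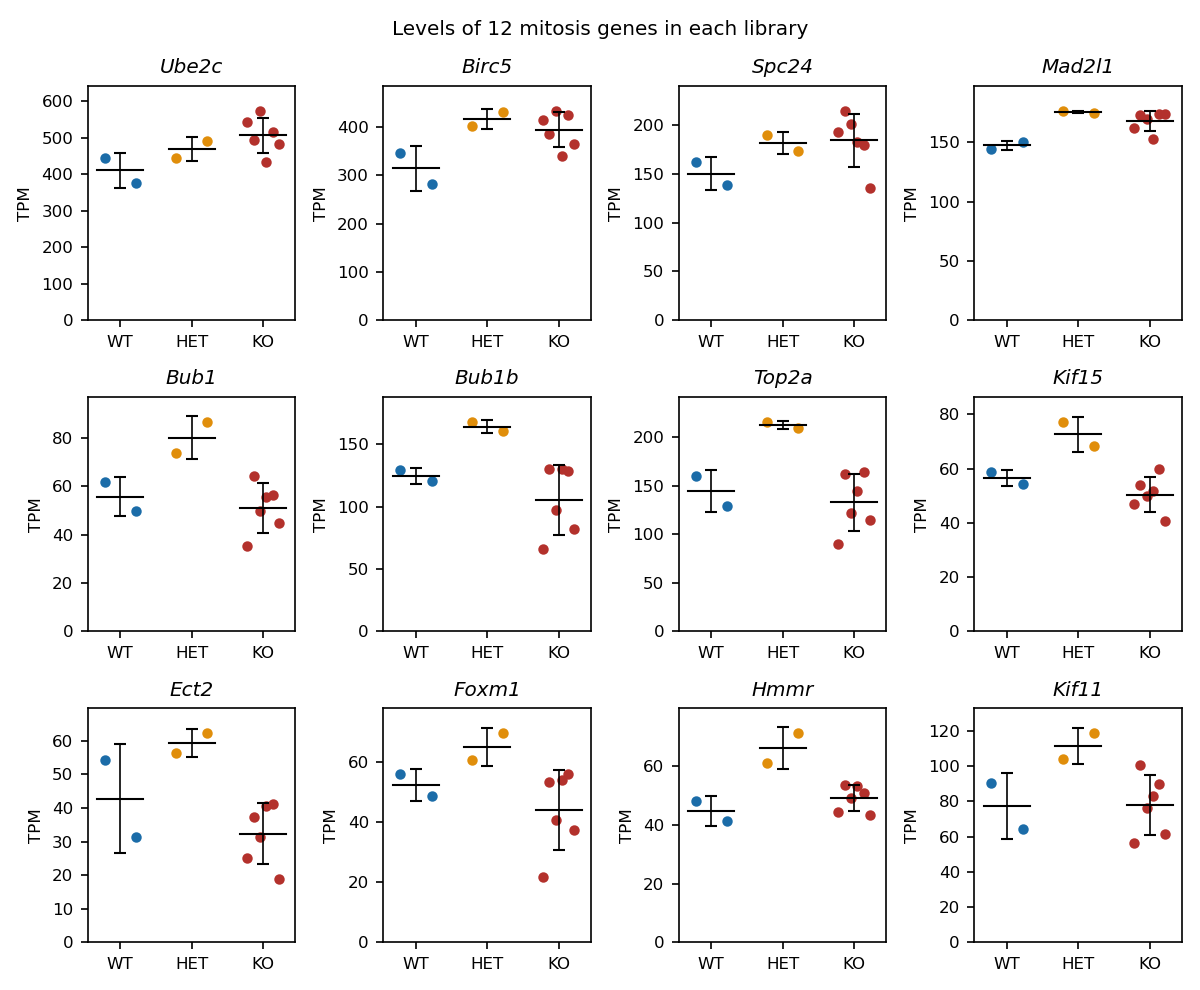
TPM of 12 of the genes in every library, by genotype (points are libraries, lines the mean and bars the standard deviation, n = 2, 2 and 6). HET stands above KO for Top2a (216 and 210 against at most 165) and Bub1, while Ube2c, Birc5 and Spc24 have WT on the low side of KO.

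WT against KO asks what loss of Zbtb38, together with the presence of Cre, does to these genes. Most members were slightly lower in WT than in KO: 33 of 42 had a negative log2 fold change, WT over KO, and the median member was at -0.18, beside -0.01 over all 14203 genes tested. The lowest were Spc24 at -0.49 (standard error 0.17), Birc5 at -0.46 (0.18) and Ube2c at -0.45 (0.20), each with both WT libraries under the KO mean CPM. Aurka was at -0.41 (0.22), Spc25 at -0.37 (0.19), Cdk1 at -0.37 (0.19) and Mad2l1 at -0.34 (0.15). Nusap1 was at -0.30 (0.15), Ccnb1 at -0.28 (0.16), Hmmr at -0.27 (0.13), and Nuf2 and Aurkb both at -0.26 (0.15 and 0.14). By role, the medians were -0.28 for the cyclin group, -0.26 for the mitotic kinases and for the kinetochore group, and -0.18 for the checkpoint group, where 4 of 6 were lower. They were -0.13 for spindle assembly and cytokinesis and -0.04 for the kinesins, and the passenger and structure group and the transcription factors were at -0.00.

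No member passed the test of WT against KO: edgeR quasi-likelihood with Benjamini-Hochberg called 0 of 42 at an adjusted p under 0.1, where 0.00704% of all genes tested (Zbtb38 alone) were called. The smallest member adjusted p was 0.999. At an unadjusted p under 0.05, 3 members were lower in WT (Spc24, Birc5 and Ube2c), or 7.14%, beside 1.0% of all genes, and 0 were higher, beside 1.19%. Leaving out libraries 1 at a time, members under that p numbered from 0 (without WT 2) to 7 (without KO 4). Without WT 1 or WT 2, 1 WT library is left and KO alone gives the spread. DESeq2 and limma on log2(TPM + 1) also called 0 members, beside 10 and 1 of all genes. They had 5 and 2 members under an unadjusted p of 0.05, beside 499 and 294 of all genes. Under limma the member median was -0.05, beside 0.14 over all genes, and 19 of 42 members were higher in WT. In CPM, 3 members had both WT libraries below every KO library (Spc24, Hmmr and Ccnb2), beside 2.68% of all genes, and 0 had both above, beside 3.91%. Without KO 1 and KO 6 the median was -0.21 with 4 members higher in WT and 0 called, beside 2 of all genes. The median rests on the WT libraries, of which there are 2: it was -0.32 without WT 1 and -0.04 without WT 2. Of the fold changes named, without WT 2 Birc5 was at -0.29, Aurka at -0.18, Hmmr at -0.15, Nuf2 at -0.12, Nusap1 and Ccnb1 both at -0.11 and Aurkb at -0.10, and without WT 1 these 7 lay between -0.69 (Aurka) and -0.40 (Hmmr).

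WT and HET together against KO gives 4 control libraries and shares the KO and WT libraries with the comparison above, so the values are set side by side and not counted as separate evidence. Here the members split: 23 were higher and 19 lower in the controls, with a median of 0.03 beside -0.02 over all 13347 genes tested. On the high side were Ect2 at 0.48 (standard error 0.19), Foxm1 at 0.39 (0.17), Bub1b at 0.35 (0.15) and Kif4 at 0.34 (0.16). Kif15 at 0.32 (0.13), Top2a at 0.32 (0.16), Bub1 at 0.30 (0.15) and Incenp at 0.28 (0.14) followed. On leaving out libraries 1 at a time, Top2a ran from 0.20 (without HET 1) to 0.45 (without WT 2) and Bub1 from 0.17 (without HET 2) to 0.43 (without WT 2). On the low side were Ube2c at -0.35 (0.15), Spc24 at -0.31 (0.13), Cdc25c at -0.27 (0.14) and Cenpa at -0.24 (0.12). Kif15 was above the KO mean CPM in 4 of 4 control libraries and Ect2 in 3 of 4, and Ube2c was below it in 4 of 4 and Spc24 in 4 of 4. The kinesins were higher in the controls in 6 of 6 (median 0.17) and the passenger and structure group in 3 of 5 (0.19), both transcription factors were higher (0.23), and so were 6 of 7 spindle assembly and cytokinesis members (0.05). The mitotic kinases were lower in 3 of 3 (-0.11), the cyclin group in 4 of 6 (-0.14) and the kinetochore group in 6 of 7 (-0.08), and the checkpoint group divided evenly (-0.02). This split by role is also one by transcript length. The roles with positive medians had median lengths from 3202 (kinesins) to 3677 bases (spindle assembly and cytokinesis). Those of the other roles ran from 1933 (mitotic kinases) to 2432 (checkpoint group).

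Again edgeR quasi-likelihood with Benjamini-Hochberg called 0 of 42 members, where 0.00749% of all genes (Zbtb38 alone) were called, and the smallest member adjusted p was 0.744. At an unadjusted p under 0.05, 4 members were higher in the controls (Kif15, Ect2, Bub1b and Foxm1), or 9.52%, beside 4.05% of all genes, and 2 were lower (Ube2c and Spc24), or 4.76%, beside 2.26%. Leaving out libraries 1 at a time, these 6 ran from 2 (without HET 1) to 11 (without KO 4). DESeq2 and limma on log2(TPM + 1) called 0 members as well, beside 25 and 0 of all genes. They had 7 and 6 members under an unadjusted p of 0.05, beside 1207 and 905 of all genes. No member had all 4 control libraries above every KO library, or all 4 below, in CPM, beside 0.989 and 0.524% of all genes. Without KO 1 and KO 6 the median was -0.02, 18 members were higher and 2 had an unadjusted p under 0.05, beside 546 of all genes. Under limma on log2(TPM + 1) the member median was 0.14, beside 0.11 over all genes, and 31 of 42 members were higher in the controls.

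HET against KO compares mice that all carry Cre and differ in the number of intact Zbtb38 alleles. Most members were higher in HET: 32 of 42, with a median log2 fold change, HET over KO, of 0.20 beside -0.07 over all 14354 genes tested. Ect2 was at 0.73 (standard error 0.21), Top2a at 0.58 (0.15), Bub1 at 0.55 (0.14), Bub1b at 0.55 (0.16) and Kif15 at 0.49 (0.15). In each of these 5, both HET libraries were above the KO mean CPM and all 6 KO libraries below the HET mean. By role, the medians were 0.43 for the transcription factors, 0.38 for the kinesins, 0.34 for the passenger and structure group, 0.25 for spindle assembly and cytokinesis and 0.13 for the checkpoint group. They were 0.05 for the kinetochore group, 0.03 for the cyclin group and 0.02 for the mitotic kinases.

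None of these differences passed the threshold in edgeR: quasi-likelihood with Benjamini-Hochberg called 0 of 42 members, where 0.00697% of all genes were called. That is 1 gene, Hnrnpll, a splicing regulator outside the 42 that was at 0 TPM in both HET libraries and is named here after its values were seen. The smallest member adjusted p values were 0.314 for Bub1 and Top2a, 0.346 for Ect2 and 0.364 for Bub1b and Kif15 (edgeR quasi-likelihood, Benjamini-Hochberg). At an unadjusted p under 0.05, 13 members were higher in HET, or 31.0%, beside 5.46% of all genes, and 0 were lower, beside 4.76%. Leaving out libraries 1 at a time, members under that p numbered from 5 (without HET 2) to 13. Without HET 2, 1 HET library is left and the other groups give the spread. In CPM, 14 members had both HET libraries above every KO library, or 33.3%, beside 8.12% of all genes, and 0 had both below, beside 5.77%. DESeq2 called 6 members: Bub1 (adjusted p 0.0228), Top2a (0.0279), Kif15 (0.0628), Ect2 (0.0698), Bub1b (0.0731) and Kif4 (0.0825), all higher in both HET libraries than in any KO library in TPM, where it called 505 of all genes. Limma on log2(TPM + 1) called 0 members and 3 of all genes, with 13 members under an unadjusted p of 0.05, beside 1048 of all genes. Under it 37 of 42 members were higher in HET, with a median of 0.31 beside 0.09 over all genes. Without KO 1 and KO 6, edgeR called 0 members and 41 of all genes, the member median was 0.13, and 10 had an unadjusted p under 0.05, beside 1767 of all genes.

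WT against HET sets Cre-free mice with 2 intact alleles beside Cre carriers with 1. Every member had a negative log2 fold change, WT over HET, with a median of -0.33 beside 0.01 over all 14354 genes tested. Hmmr was at -0.59 (standard error 0.15), Top2a at -0.59 (0.19), Kif11 at -0.55 (0.21), Bub1 at -0.55 (0.18) and Kif23 at -0.45 (0.16), and in each both WT libraries were below both HET libraries in TPM. The role medians ran from -0.26 (kinetochore) through -0.28 (cyclin group), -0.29 (mitotic kinases), -0.31 (checkpoint), -0.32 (passenger and structure), -0.37 (spindle assembly and cytokinesis) and -0.40 (kinesins) to -0.43 (transcription factors). In CPM, 36 members, 85.7%, had both WT libraries below both HET libraries, beside 23.5% of all genes, and 0 had both above, beside 24.5%.

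With 2 libraries on each side, edgeR quasi-likelihood with Benjamini-Hochberg called 0 of 42 members, where 0.00697% of all genes (Hnrnpll alone, higher in WT) were called. The adjusted p was 0.709 for Hmmr, Top2a, Bub1 and Kif23 and 0.716 for Kif11 (edgeR quasi-likelihood, Benjamini-Hochberg). At an unadjusted p under 0.05, 10 members were lower in WT, or 23.8%, beside 2.44% of all genes, and 0 were higher, beside 3.98%. Without WT 2 only 1 member was under that p, and without WT 1 there were 13, the lowest and highest counts on leaving out libraries 1 at a time. In both of these fits 1 WT library is left and the other groups give the spread. DESeq2 called 1, Hmmr (log2 -0.60, adjusted p 0.0172), beside 168 of all genes. Limma on log2(TPM + 1) called 0 members and 0 of all genes, with 4 members under an unadjusted p of 0.05, beside 705 of all genes. With only the 4 libraries of these groups in the edgeR fit, 6 members were called (Top2a, Hmmr, Mybl2, Kif4, Kif23 and Bub1b), all lower in WT, beside 523 of all genes. Without KO 1 and KO 6, which the main fit holds, edgeR called 0 members and 44 of all genes, the member median was -0.31, and 14 had an unadjusted p under 0.05, beside 1821 of all genes. With all 6 KO libraries in the fit, the median was -0.48 without WT 1 and -0.21 without WT 2, and Kif11 was at -0.84 and -0.32.

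The members' fold changes followed transcript length. Across the 42 genes, which are not independent replicates, the Spearman correlation between mean transcript length and log2 fold change was 0.64 for WT over KO, 0.78 for WT and HET over KO, 0.81 for HET over KO and -0.53 for WT over HET. Over all genes tested it was 0.27, 0.37, 0.27 and -0.08. Member lengths ran from 968 bases (Ube2c) to 9716 (Mki67). Among the 21 shorter members (up to 2742 bases, Kif23), 4 were higher in WT and HET than in KO, with a median of -0.13, and among the 21 longer ones (from 2827 bases, Racgap1) 19 were higher, with a median of 0.17. All genes tested, split at the same length, had medians of -0.11 and 0.12. For HET over KO the medians were 0.02 in the shorter members (12 of 21 higher) and 0.34 in the longer (20 of 21), and -0.14 and 0.10 in all genes. In KO 1 the shorter members stood 0.29 above and the longer members 0.22 below their own means on log2 CPM, with -0.51 as the difference. KO 6 had both below, at -0.09 and -0.25. The part of this length trend in the differences between genotypes was not tested, and the 2 refits that follow cannot decide it. An offset for length takes out such a trend by construction, also one that goes with genotype. KO 1 and KO 6 were picked partly for their deviation with length.

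**Figure D3:**
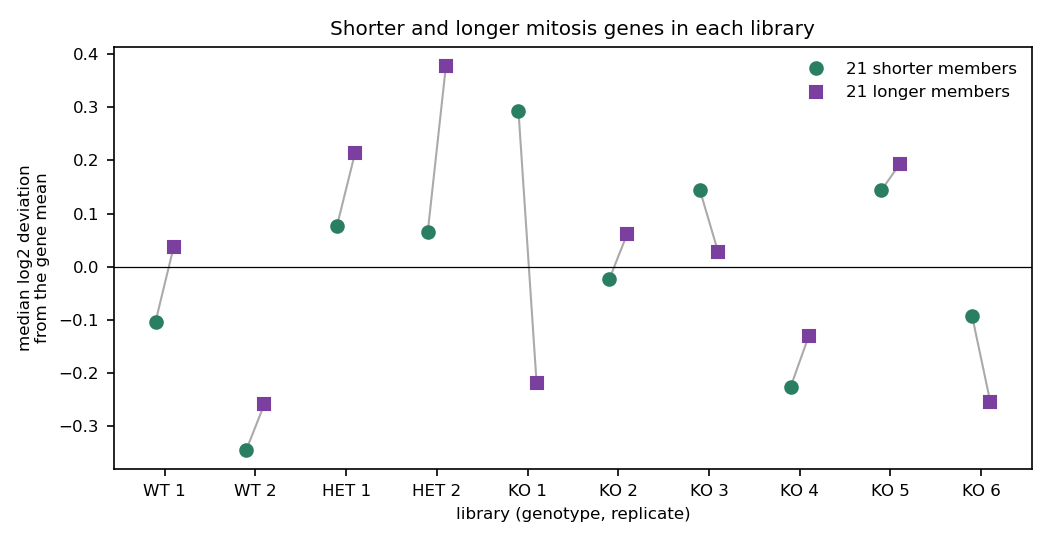
Median log2 deviation of the 21 shorter (circles) and 21 longer (squares) members from their own means over 10 libraries, on TMM-normalized CPM plus 1, for each library. KO 1 has the shorter members above and the longer members below, and HET 2 has the longer members furthest above.

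With each library's trend of level on length, estimated over all genes, taken out as an offset, the members of WT and HET over KO had medians of -0.06 in the shorter (5 of 21 higher) and -0.00 in the longer (10 of 21), and the correlation across genes with length was 0.37. For HET over KO they were 0.08 (18 of 21 higher) and 0.25 (19 of 21), with a correlation of 0.54. In that fit the median of all members was -0.21 for WT over KO, -0.04 for WT and HET over KO, 0.16 for HET over KO and -0.35 for WT over HET. In each, edgeR called 0 members, beside 1, 1, 4 and 1 of all genes. Members with an unadjusted p under 0.05 then numbered 6, 2, 9 and 20, beside 322, 499, 1207 and 1115 of all genes. Leaving out KO 1 and KO 6 instead gave -0.11 and 0.06 for the shorter and longer members of WT and HET over KO (4 and 14 of 21 higher), and 0.03 and 0.27 for HET over KO (13 and 19 of 21). The correlations with length were then 0.66 and 0.74, against 0.78 and 0.81 in the main fits. Gene by gene, Ube2c in WT and HET over KO went from -0.35 to -0.15 with the offset, Cenpa from -0.24 to -0.05, and Top2a from 0.32 to 0.15. Kif15 went from 0.32 to 0.28 and Ect2 from 0.48 to 0.34. Spc24 went from -0.31 to -0.16, Kif4 from 0.34 to 0.17, Bub1 from 0.30 to 0.19 and Bub1b from 0.35 to 0.23. Incenp went from 0.28 to 0.18, Foxm1 from 0.39 to 0.26 and Cdc25c from -0.27 to -0.23. For HET over KO, Top2a went from 0.58 to 0.41 and Bub1 from 0.55 to 0.45. Without KO 1 and KO 6, WT and HET over KO gave 0.16 for Incenp, 0.21 for Bub1b, 0.20 for Kif4 and 0.25 for Foxm1. These 2 refits were chosen after seeing the data.

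**Figure D4:**
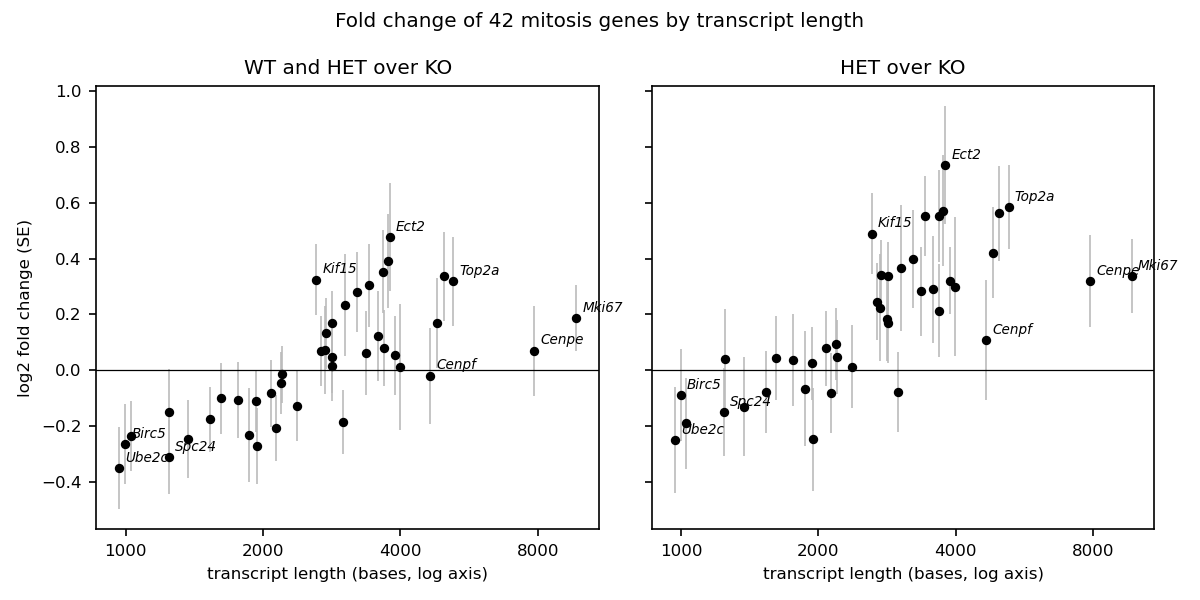
Log2 fold change of the 42 genes (points, bars are the standard error of the edgeR fit) against mean transcript length on a log axis, for WT and HET over KO and for HET over KO. The short member Ube2c lies below 0 in both panels and the long members Ect2 and Top2a above, while the shorter members as a whole lie mostly below 0 in the first panel and on both sides of it in the second.

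Other genes of cell division, taken as lists beside the 42, had no gene with an adjusted p under 0.1 in any of the 4 comparisons (edgeR quasi-likelihood, Benjamini-Hochberg). Of 40 other kinetochore and centromere genes, 16 were higher in WT and HET than in KO, with a median of -0.08, and 23 were higher in HET than in KO (median 0.04). Anaphase-promoting complex and other mitotic regulators gave 12 of 33 higher (median -0.07) and 22 of 33 (0.06), other spindle and cytokinesis genes 24 of 50 (-0.01) and 34 of 50 (0.13), and condensin and cohesin genes 17 of 21 (0.16) and 20 of 21 (0.25). The DREAM and MuvB list, regulators that bind the promoters of these genes, had 11 of 22 higher in WT and HET (0.00) and 15 of 22 in HET (0.14), and G1/S and replication genes 16 of 36 (-0.08) and 25 of 36 (0.09). In WT over KO the medians of these 6 lists were -0.22, -0.17, -0.12, 0.05, -0.08 and -0.20 in the order named, and in WT over HET -0.28, -0.22, -0.29, -0.25, -0.21 and -0.32. Among the most abundant of them, Tuba1b, an alpha-tubulin of the spindle, was at 1764 TPM over the 10 libraries on average, Cks2, a partner of Cdk1, at 673, Bub3, a checkpoint protein, at 292, and Smc4, a condensin subunit, at 289.5. Mcm10, a replication factor, was at 31.9 and 32.7 TPM in WT, 37.5 and 43.6 in HET and 18.9, 31.1 and 43.1 in KO, where KO overlaps with WT and with HET, with log2 fold changes of -0.04 (WT over KO), 0.15 (WT and HET over KO), 0.32 (HET over KO) and -0.37 (WT over HET).

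The germinal center lists gave the following. Dark zone genes, of the zone where the cells divide, had medians of 0.05 (WT over KO), 0.12 (WT and HET over KO), 0.20 (HET over KO) and -0.24 (WT over HET) over 12 genes, and light zone genes 0.05, 0.06, -0.11 and 0.09 over 20. The germinal center identity list (16 genes) gave -0.03, 0.02, 0.12 and -0.15. Its summed level lay between 9962 (KO 5) and 12056 TPM (KO 2).

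Lists of genes named for other cells moved between the libraries beside the members. Their sums weigh the most abundant genes most, and which cells those came from was not tested. Ighm had means of 7770 TPM in WT, 2891 in HET and 5961 in KO. In the T cell list Cd2 was at 175, 90.3 and 143 in the same order, and Lck at 120, 121 and 109. Trac, also of that list, was at 45.3, 8.24 and 19.2. In the plasma cell list Jchain was at 1295, 1103 and 1251, and Mzb1 at 974, 888 and 1028. The naive B cell list (12 genes, Ighm most abundant) summed to 8863 and 9464 TPM in WT 1 and WT 2, 3538 and 4077 in HET 1 and HET 2, and 4326, 5092, 5090.4, 10146, 6542 and 11480 in KO 1 to KO 6. Its genes were lower in HET than in KO in 10 of 12 (median -1.13) and higher in WT than in HET in 11 of 12 (1.13), with 0.16 for WT over KO and -0.24 for WT and HET over KO. T cell genes (20, Cd2 most abundant) summed to 570.4 and 649 TPM in WT, 251 and 284 in HET and 366, 404, 317, 484, 333 and 469 in KO, and 19 of 20 were higher in WT than in KO (median 1.00) and than in HET (2.34), 1 of 20 in HET than in KO (-1.13) and 13 of 20 in WT and HET than in KO (0.35). Myeloid genes (16, Lyz2 most abundant) summed to 774 and 615 TPM in WT, 106 and 140.3 in HET and 126, 115, 352, 1098, 364 and 387 in KO, with medians of 0.45, -0.20, -1.57 and 1.99 in the order WT over KO, WT and HET over KO, HET over KO and WT over HET over the 15 tested. Erythroid genes (9, Hbb-bt most abundant) summed to 133 and 187 TPM in WT, 115 and 104 in HET and 217, 186, 257, 247, 176 and 251 in KO. The medians of those tested were -0.95, -1.29, -3.11 and 0.02 in the same order. Plasma cell genes (12, Jchain most abundant) summed to between 2540 (HET 2) and 3160 TPM (KO 3), with medians of -0.09, -0.24, -0.41 and 0.47. The sort was on IgD-negative cells; Elane, a neutrophil protease, and Slc4a1, the red cell anion exchanger, were at 0 in every library, while Cd3e, of the T cell receptor complex, was at 19.8 and 15.5 TPM in WT, 1.74 and 4.68 in HET and 3.85 to 8.52 in KO. The libraries with the highest member sums, HET 1 and HET 2, had the lowest sums of the naive B and T cell lists and myeloid sums near those of KO 1 and KO 2, and the part of these markers in the differences of the members was not tested.

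The members share promoter elements that their choice did not use. Promoters from RefSeq (mouse build GRCm38.p6, 250 bases before to 50 after each start) were found by symbol for 34 of the 42 genes, 36 promoters in all; Aurkb, Ccna2, Cdc25c, Foxm1, Incenp, Kif20a, Spc24 and Tpx2 had no entry. Both strands were searched for TTTGAA and TTCGAA, forms of the cell cycle homology region that the DREAM and MuvB complexes read, and for CCAAT, the element of NF-Y. TTTGAA, which reads TTCAAA on the other strand, was in 27 of 36 promoters (75%), beside 17.9% of all 32851 promoters of the same length. TTCGAA was in 4 of 36 (11.1%), beside 1.56%, and either form in 29 (80.6%), beside 19.2%. CCAAT was in 27 (75%), beside 37.4%, and at least 2 times in 18 (50%), beside 11.7%. CCAAT together with either form was in 25 (69.4%), beside 7.52%. In 25 members an element lay within 50 bases of the start, and the share of all promoters with one there was not counted. A match describes letters, not a site in use, and whether the elements bear on the differences between genotypes was not tested.

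The windows of 30 bases that follow show the element nearest the start in 7 of the 8 most abundant members that have one and in the 8 members whose fold changes were named for HET over KO or WT over HET. Each is printed 5′ to 3′ on the strand of the gene, from RefSeq on GRCm38.p6, with the element in capitals. The number after each strand is the place of the element's leading base relative to the start. The windows lie for Ube2c at chr2:164769888-164769917 (plus strand, -29), Cdc20 at chr4:118437344-118437373 (minus strand, -18), Ccnb2 at chr9:70421533-70421562 (minus strand, 4), Cenpa at chr5:30666890-30666919 (plus strand, 16) and Cdk1 at chr10:69352910-69352939 (minus strand, -15). They lie for Cdc25b at chr2:131186943-131186972 (plus strand, 7), Plk1 at chr7:122159453-122159482 (plus strand, 30), Top2a at chr11:99024195-99024224 (minus strand, -23), Kif23 at chr9:61946780-61946809 (minus strand, 2) and Bub1b at chr2:118598231-118598260 (plus strand, 40). For the last set they lie for Kif11 at chr19:37376351-37376380 (plus strand, -19), Bub1 at chr2:127831828-127831857 (minus strand, 14), Kif15 at chr9:122951050-122951079 (plus strand, -19), Hmmr at chr11:40733412-40733441 (minus strand, 8) and Ect2 at chr3:27153822-27153851 (minus strand, 15). The Cdc20 window also holds a CCAAT, and the Kif23 window holds one on the other strand. They are shown because they are what the promoters of these members have in common by letters.
Ube2c: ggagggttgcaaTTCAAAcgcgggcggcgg
Cdc20: agacagttgggtTTTGAAggagccaatgaa
Ccnb2: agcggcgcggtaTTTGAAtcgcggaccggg
Cenpa: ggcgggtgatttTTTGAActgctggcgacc
Cdk1: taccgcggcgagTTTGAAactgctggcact
Cdc25b: ccgctgttatttTTCGAAtatataaggagg
Plk1: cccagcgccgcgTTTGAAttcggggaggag
Top2a: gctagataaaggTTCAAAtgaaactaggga
Kif23: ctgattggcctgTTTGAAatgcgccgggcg
Bub1b: ctgcgtcaagagacgttaaaTTTGAAactt
Kif11: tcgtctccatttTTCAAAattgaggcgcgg
Bub1: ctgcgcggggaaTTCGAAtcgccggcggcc
Kif15: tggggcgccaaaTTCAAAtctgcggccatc
Hmmr: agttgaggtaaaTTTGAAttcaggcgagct
Ect2: cgactggattttTTTGAAtcggaggcggca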

How the data were processed

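The authors made 10 libraries with SMART-Seq v4 and Nextera kits and quantified paired-end reads with Salmon 0.9.1 against Gencode vM17, per the submitters' notes and the study's methods. The deposited files give, per transcript, estimated counts (not normalized) and TPM, which the authors' Salmon run scaled by effective length. Both were summed per gene by the gene identifier in the transcript name, and the estimated counts were rounded to whole numbers. Members were matched by the symbol in that name. Fold changes and p-values come from edgeR 4.0.16 in R 4.3.3 (TMM, filterByExpr, quasi-likelihood, Benjamini-Hochberg over all genes tested, threshold 0.1), in 4 comparisons: WT against KO, WT and HET against KO, HET against KO, and WT against HET, the last 2 from a fit of all 10 libraries. They share libraries. CPM is TMM-normalized. Transcript length is the TPM-weighted mean per gene. The steps were tested on simulated data with known changes before use. Of simulated 2-fold changes, edgeR at the threshold of 0.1 recovered 38.4% in WT against KO and 44.9% in WT and HET against KO. It recovered 43.2% in HET against KO and 14.1% in WT against HET. Smaller changes were not simulated, so a count of 0 members called does not show that levels were equal. The members and gene lists were chosen with earlier results of these data known. Levels are given for all members, fold changes for the 12 members with the smallest unadjusted p in each of the main 2 comparisons and the 5 in each of the others. Alternatives were DESeq2 1.42.0, limma 3.58.1 on log2(TPM + 1) and log2(TPM + 0.1), other filters, length-scaled counts, a fit without immunoglobulin genes, a replicate block, each library left out, and, chosen after seeing the data, KO 1 and KO 6 left out and an offset for the length trend (lowess, span 0.3). Part of the sort markers, the levels of 2 marker genes, the value of a context gene and 1 promoter window are not reported here. Tables and figures were made with Python 3.11.15.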

Additional observations from a re-analysis of the deposited data

Results flagged for a closer look

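In a group of 4 to 10 libraries, a library was looked at again where its gap to the nearest other was large against the group's range (Dixon's 95% limit), over the TPM of each member, and of the members summed, in the 2 groups of control and KO libraries; chance flags about 1 in 20 groups, or 4.3 of the 86 checked, and 2 were found. Ccnb2 was at 224 TPM in KO 6, where the next lowest KO library was at 283. In CPM KO 6 did not stand apart for Ccnb2, at 253.6 beside 256.0 in KO 4. Nusap1 was at 91.4 TPM in WT 2, where the next lowest control library was at 118. KO 6 is also the library that stands apart across all genes, and WT 2 holds the lowest value of 20 members.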

How the results depend on the processing

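The number of members called was 0 in WT against KO and in WT and HET against KO under every alternative run, and without any 1 library in all 4 comparisons. HET against KO and WT against HET had fewer alternatives (no other threshold, count minimum, set of genes, length-scaled counts or smaller limma offset), and 0 were called under them with these exceptions: DESeq2 called 6 in HET against KO and 1 in WT against HET, and edgeR on only the libraries of the 2 groups called 6 in WT against HET; the cause was not tested. Leaving out each library in turn, the median log2 fold change of the members ran from -0.32 to -0.043 for WT over KO, from -0.05 to 0.14 for WT and HET over KO, from 0.14 to 0.27 for HET over KO and from -0.48 to -0.21 for WT over HET. The Zbtb38 value ran from 2.19 to 2.49 for WT over KO and from 1.97 to 2.26 for WT and HET over KO, with 6 of 8 left-out libraries ending the WT over KO call. Of 684 values for members with a named fold change under an alternative, 0 changed sign and 9 passed the threshold that the value reported did not. With the replicate block, 3 genes of the marker lists changed sign in WT and HET over KO. They were Fkbp11 (from -1.39 to 0.37), Cd8a (from -0.68 to 0.26) and Ly6c2 (from -1.31 to 0.43). The members then had medians of -0.22, -0.01, 0.15 and -0.34 over the 4 comparisons with 0 called, beside 6, 0, 4 and 66 of all genes. Whether replicate numbers pair libraries across genotypes could not be decided. Correlations of deviations from group means ran from -0.00798 to 0.127 for same-numbered libraries and from -0.165 to 0.165 for others. With 2 libraries each in WT and HET, the deviations within a group mirror each other. Bach2, of the dark zone list, changed sign in WT and HET over KO with the length offset, from 0.16 to -0.0045. The cause was not tested. Each library had 26612431 counts or more, and each control genotype 2 libraries.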
